A study of Mus musculus with 6 samples.

Results

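The genes described here are 41 genes of glycolysis, of the handling of pyruvate and lactate, and of the citrate cycle. They were taken by symbol from a table of read counts for 53670 genes, and all 41 were present. RNA was sequenced from isolated pancreatic islets of 6-week-old mice, with 3 libraries labelled Paupar +/+ (wild type, WT) and 3 labelled Paupar -/- (knockout, KO). Paupar is a long noncoding RNA gene beside Pax6, the gene of an islet transcription factor, and the labels name no treatment, strain, sex or further allele. How the KO allele was made, and whether each library came from 1 mouse or from pooled mice, is not given in the sources used here. P-values therefore measure only the spread between these libraries, which may be technical. Levels are read counts relative to library size (CPM), scaled by TMM factors that correct for differences in library composition, and values of single libraries are listed in the order of replicates 1, 2 and 3.

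Glycolysis splits glucose into pyruvate in the cytosol, and the citrate cycle oxidises the acetyl group made from pyruvate in mitochondria. In beta cells, the insulin-producing cells of the islet, this flux is tied to insulin release: glucose enters through the transporter Slc2a2, and pyruvate goes to mitochondria rather than to lactate. Ldha (lactate dehydrogenase A), Slc16a1 (the monocarboxylate carrier MCT1) and Hk1 (a hexokinase of high glucose affinity) are known as disallowed genes, which most tissues express and beta cells keep low.

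Total counts ran from 25733194 to 27285009 per library. Paupar was counted 177, 252 and 111 times in WT and 4, 0 and 4 times in KO, as the genotype labels have it. All 10 beta and all 7 alpha cell markers listed had counts in every library. Xist, the RNA of the inactive X chromosome, was counted 1, 6 and 3 times in the WT libraries and 0, 1120 and 862 times in the KO libraries. The Y-linked gene Ddx3y was counted 1715, 1316 and 1830 times in WT and 1693, 2 and 0 times in KO. KO replicates 2 and 3 thus stood apart from the other 4 libraries in sex-linked transcripts, a pattern seen in no WT library. A difference of genotype and one of sex cannot be told apart in these libraries. This limit holds for every comparison of KO with WT below that uses all 6 libraries, so results are also given for KO replicate 1 alone. Summed beta cell markers ran from 217881 to 237314 CPM in WT and from 281904 to 289009 in KO, without overlap. Insulin transcripts (Ins1 and Ins2) made up 87.4% to 89.2% of that sum. By gene, 4 of the 10 markers had KO libraries all above WT, beside 11.3% of all genes. The beta cell transcription factor genes Mafa (-0.22, SE 0.20) and Nkx6-1 (-0.09, SE 0.16) had negative log2 fold changes, with overlap. Summed endothelial markers also did not overlap, at 457 to 573.3 CPM in WT and 638 to 664 in KO. All 12 of 12 had counts in every library. By gene, 5 of the 12 had KO libraries all above WT, beside the same 11.3%. In bulk RNA, fewer cells of a type and less RNA per cell cannot be told apart.

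Most members were slightly higher in KO islets, and none differed enough to pass the test. All 41 passed the filter on low counts, and edgeR's quasi-likelihood test with Benjamini-Hochberg adjustment over 15915 genes called 0 of them, against 0.170% of all genes. The lowest adjusted p among members was 0.165, for Pgam1. DESeq2, run on the same counts, called 1 member higher in KO, Pgam1 (adjusted p = 0.0481), and 0 lower. DESeq2 gave an adjusted p to 39 of the 41 members (not to Hk2 and Slc16a1) and to 10659 genes in all, of which it called 1.96% higher and 4.10% lower. At an unadjusted p below 0.05 in edgeR, 11 of 41 members (26.8%) were higher in KO and 0 lower, against 6.99% of all genes higher and 9.38% lower. In 12 members (29.3%) every KO library lay above every WT library, where the share over all genes was 11.3%. In 0 members did every KO library lie below every WT library, where that share was 12.1%. The log2 fold change of KO over WT was above 0 in 34 members and below 0 in 7, with a median of 0.09, whereas 50.3% of all genes were above 0 and their median was 0.00.

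**Figure D1:**
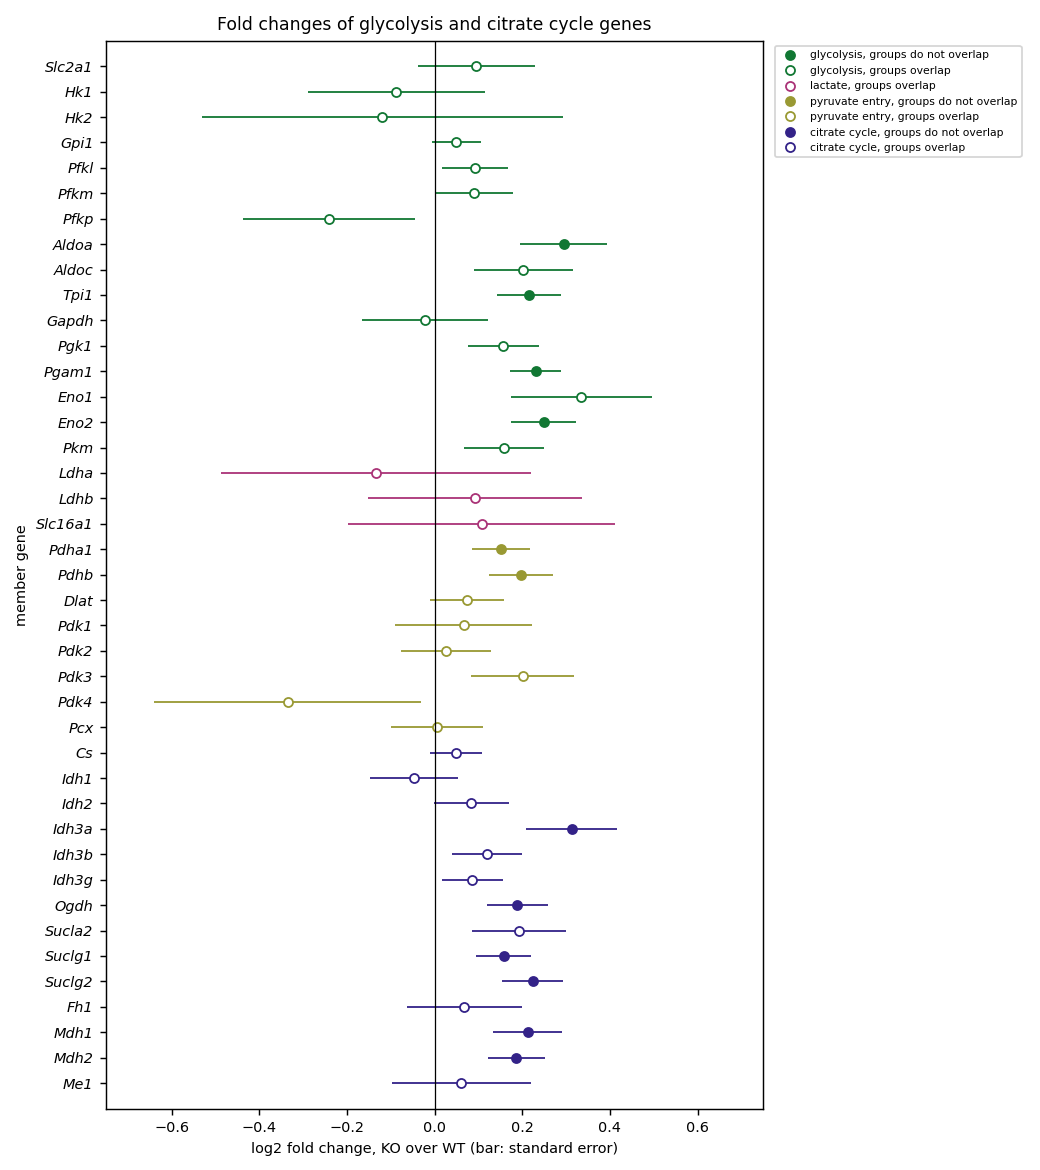
Log2 fold change of KO over WT (x axis) for each of the 41 members (y axis), with bars for the standard error; filled points mark members whose KO libraries all lie above the WT libraries. The 12 filled points all lie right of 0, as the rule that fills them requires, and the lactate genes carry some of the longest bars.

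The shift was seen in each KO library. For every library, the log2 level of each member, with 0.5 CPM added, was taken relative to the mean of its 3 WT log2 levels. The median over the 41 members was -0.01, -0.01 and 0.02 for the WT libraries, which set the reference and so centre on 0. For the KO libraries it was 0.14, 0.09 and 0.15. The same median over all tested genes stayed between -0.01 and 0.01. KO replicates 1 to 3 held the highest level of 10, 10 and 11 members, and WT replicates 1 to 3 of 2, 5 and 3. With KO replicate 1 alone against the WT libraries, 23 of 41 members (56.1%) lay above all 3 WT libraries, against 28.0% of all genes. Leaving out any 1 library gave 14 to 17 members, against 14.9% to 19.5% of all genes.

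**Figure D2:**
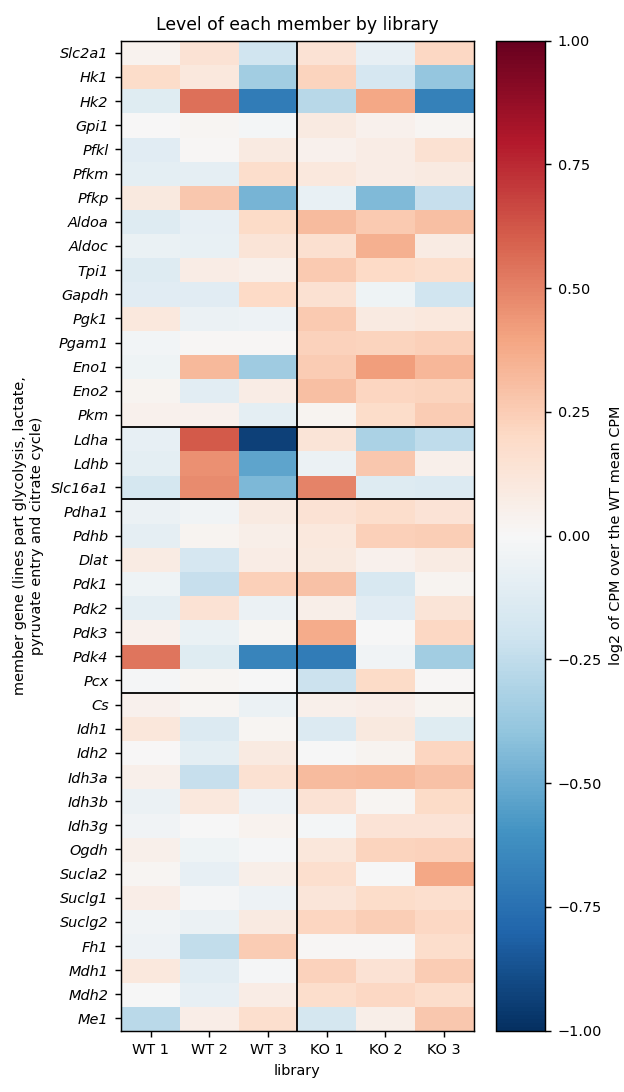
Colour gives the log2 ratio of CPM to the WT mean for each member (rows, parted by step) in each library (columns). Most rows are pale red across the 3 KO columns, while Hk2, Ldha, Ldhb, Slc16a1 and Pdk4 differ as much within a genotype as between genotypes.

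Promoter sequence is shown for 4 members. They are Pgam1 (the member with the lowest p), Ldha (whose level varied most among the WT libraries), Pdhb and Ogdh. The Pdhb and Ogdh windows were picked because they share a short motif with that of Pgam1. Slc16a1, whose groups overlapped, also holds this motif, and its window is not shown. Each sequence is the stretch of 250 bases before an annotated start in RefSeq (mouse build GRCm38.p6), read in the direction of transcription. By symbol, 40 of the 41 members matched a window. Capitals mark any match, on either strand, to CACGTG (the E-box), to ACGTG or GCGTG (cores of the hypoxia response element, of which ACGTG lies within CACGTG), to AAGGTCA (a core of the site of estrogen-related receptors) or to GCATGCG (a core of the NRF1 site).
Pgam1, chr19:41911621-41911870, plus strand: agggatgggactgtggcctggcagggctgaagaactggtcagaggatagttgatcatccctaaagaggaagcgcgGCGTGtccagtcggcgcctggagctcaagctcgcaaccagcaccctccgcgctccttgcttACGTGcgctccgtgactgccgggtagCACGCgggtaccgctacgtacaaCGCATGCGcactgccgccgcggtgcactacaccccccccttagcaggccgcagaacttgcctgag
Pdhb, chr14:8172993-8173242, minus strand: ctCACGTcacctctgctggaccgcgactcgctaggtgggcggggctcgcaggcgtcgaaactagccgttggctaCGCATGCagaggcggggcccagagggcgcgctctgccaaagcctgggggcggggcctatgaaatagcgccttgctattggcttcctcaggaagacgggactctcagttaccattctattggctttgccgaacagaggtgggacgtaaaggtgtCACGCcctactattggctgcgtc
Ogdh, chr11:6292308-6292557, plus strand: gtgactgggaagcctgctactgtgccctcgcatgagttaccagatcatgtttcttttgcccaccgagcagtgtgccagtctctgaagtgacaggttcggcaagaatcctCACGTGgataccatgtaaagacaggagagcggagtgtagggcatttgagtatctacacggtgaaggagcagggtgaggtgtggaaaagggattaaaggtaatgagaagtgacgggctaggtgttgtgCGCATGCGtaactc
Ldha, chr7:46845554-46845803, plus strand: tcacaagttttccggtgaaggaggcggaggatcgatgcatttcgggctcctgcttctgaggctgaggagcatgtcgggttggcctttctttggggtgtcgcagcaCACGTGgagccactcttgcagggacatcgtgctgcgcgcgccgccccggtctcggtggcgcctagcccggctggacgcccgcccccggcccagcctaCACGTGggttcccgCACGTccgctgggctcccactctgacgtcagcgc
GCATGCG was in 5 of 61 member windows (8.20%) and in 3.02% of the 32851 windows of all genes used. By gene, it was in 4 of 40 members (10%), against 3.43% of all genes used. At Ogdh it lies only in the overlapping windows from 6292308 and 6292329, which cover the same site and are counted apart. Other Ogdh windows, such as that from 6291347, hold none. The genes with it were Pgam1, Pdhb, Ogdh and Slc16a1. Of these, the first 3 had KO libraries all above WT, and of the 40 members with a window 11 did. The same held for 1 of 6 members with CACGTG, 5 of 17 with ACGTG, 6 of 24 with GCGTG and 0 of 1 with AAGGTCA. A link between any of these motifs and the level in KO was not tested. ACGTG was in 24 of 61 member windows (39.3%), against 16.6% of all windows, and GCGTG in 31 (50.8%), against 28.2%. CACGTG was in 8 member windows (13.1%, against 6.02%), and the Ldha window shown holds 2 copies of it. AAGGTCA was in 1 member window (1.64%, against 4.08%), at Eno1. Several windows of 1 gene overlap, and a match describes letters only.

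Glycolysis members were spread over both kinds of pattern. Of these 16 genes, 4 (25%) had KO libraries all above WT, beside 11.3% of all genes. Log2 fold changes were positive in 12 and 0 were called, with a median of 0.13. Aldoa, the main aldolase, which cleaves fructose 1,6-bisphosphate (chromosome 7, 133938748 to 133944265 in mm9), stood at 243, 252 and 303 CPM in WT against 331, 319 and 328 in KO. WT replicate 3 lay near the KO libraries, and the groups did not overlap (log2 fold change 0.29, SE 0.10, edgeR adjusted p = 0.230). Tpi1, triose phosphate isomerase (chromosome 6, 124760604 to 124764314), was at 84.2, 96.5 and 94.9 CPM in WT and 110.4, 105.7 and 103.9 in KO (0.22, SE 0.07, adjusted p = 0.234).

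Pgam1, a phosphoglycerate mutase (chromosome 19, 41986361 to 41993154), was the member with the smallest spread within groups. It stood at 44.0, 45.3 and 45.4 CPM in WT and 52.7, 52.4 and 52.9 in KO, so the gap between genotypes exceeded the range within either (0.23, SE 0.06, adjusted p = 0.165). Most of the Pgam1 transcript sequence also occurs elsewhere in the genome, a limit on its counts that is given below. Eno2, the neuronal and endocrine enolase (chromosome 6, 124710071 to 124719691), was at 37.0, 33.9 and 38.4 CPM in WT and 45.0, 42.3 and 42.6 in KO (0.25, SE 0.07, adjusted p = 0.203). All 3 KO libraries were again above the highest WT library.

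The other glycolysis members overlapped between genotypes. Pkm, pyruvate kinase, which makes pyruvate, had the highest level per length of all 41 members in WT, at 189 CPM per kilobase of exonic length, followed by Aldoa at 96.5. In CPM, Pkm was at 468, 467 and 424 in WT and 462, 514 and 541 in KO (0.16, SE 0.09), where KO replicate 1 fell among the WT values. Pgk1, phosphoglycerate kinase, was at 0.16 on the log2 scale (SE 0.08), and the phosphoglucose isomerase Gpi1 at 0.05 (SE 0.06). With DESeq2 size factors the KO libraries of Gpi1 lay all above WT, and 13 of the 41 members were then without overlap. Of the phosphofructokinase genes, which encode the committing enzyme of the pathway, Pfkl and Pfkm both had log2 fold changes of 0.09 and Pfkp, the platelet-type form, one of -0.24 (SE 0.20). Aldoc, the brain-type aldolase, was at 0.20 (SE 0.11), and the glucose transporter Slc2a1 at 0.09 (SE 0.13). Hk2, an inducible hexokinase, had only 29 to 69 counts per library and the lowest level per length, 0.293 CPM per kilobase in WT (log2 fold change -0.12, SE 0.41).

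Summed over the 16 genes, glycolysis transcripts took 1336, 1384 and 1349 CPM in WT, and in KO they took 1515, 1538 and 1567. Every KO library was above every WT library, and the mean was 13.5% higher in KO (1357 ± 24.6 against 1540 ± 25.997 CPM, SD, n = 3). The two-sided exact permutation p was 0.1, the smallest that 3 against 3 libraries allow, and 0.2 adjusted over 4 steps. Pkm and Aldoa together made up 51.9% to 55.4% of this sum in the 6 libraries, and without them it was 638 ± 23.7 CPM in WT and 708 ± 11.9 in KO, also without overlap. The summed beta cell and endothelial markers moved with it in the same libraries, and their part in it was not tested.

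**Figure D3:**
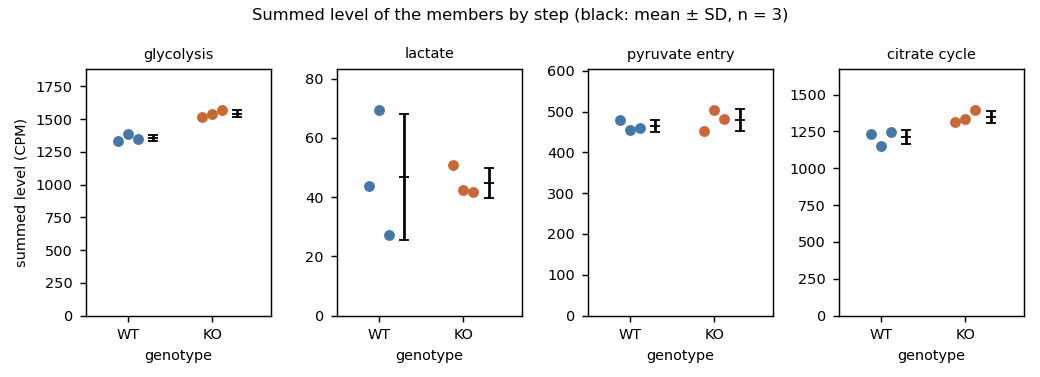
Summed CPM of the members of each step (y axis, from 0) in the 3 WT and 3 KO libraries, with mean and SD in black. The KO points lie above the WT points for glycolysis (1515 to 1567 against 1336 to 1384) and the citrate cycle. They overlap the WT points for lactate, and for pyruvate entry lie on both sides of the WT points (451.7 below, 483.2 and 503.2 above).

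Counts of Pgam1, Pgk1, Gapdh, Eno1 and other glycolysis members need care, because many glycolysis genes have processed copies elsewhere in the mouse genome. For each member, the share of 31-base words of its longest coding transcript that occur exactly elsewhere in the mm9 genome was counted. It was 94.1% for Pgam1, 94.0% for Pgk1, 85.8% for Gapdh, 77.2% for Eno1 and 64.1% for Pkm. In all, 13 members were above 30%, from 38.9% to 94.1%, and the other 28 were at most 11.5%. Reads that fit several places may have been dropped or split, and the sources used here do not give the counting options. The 13 had a median log2 fold change of 0.16, with 5 whose groups did not overlap, and the 28 had one of 0.09, with 7. Gapdh, the glyceraldehyde phosphate dehydrogenase, had 234 to 313 counts per library, 4.49 CPM per kilobase in WT, where Tpi1, the step before it, had 41.6 and Pgk1, the step after it, 30.2. Its log2 fold change was -0.02 (SE 0.14), and its level is best read as uncertain. The same limit holds for Pgam1, the only member that DESeq2 called.

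Eno1, the ubiquitous enolase (chromosome 4, 149610830 to 149622988), had the largest positive log2 fold change of any member, 0.33, with a standard error of 0.16 (adjusted p = 0.361). It was at 88.1, 113.7 and 71.1 CPM in WT and 108.6, 121.3 and 114.3 in KO, so WT replicate 2 lay among the KO libraries. Eno1b, a near-identical gene copy on another chromosome, was counted 176, 5 and 293 times in WT and 187, 4 and 1 times in KO. Counts on Eno1b were thus 6.15% to 13.2% of the summed Eno1 and Eno1b counts in WT replicates 1 and 3 and KO replicate 1, and 0.0330% to 0.163% in the other 3 libraries. With both genes summed, a choice made after seeing the data, the level was 94.7, 113.8 and 82.0 CPM in WT and 115.7, 121.4 and 114.3 in KO. The groups then did not overlap, at 0.27 on the log2 scale (SE 0.12, adjusted p = 0.314), which made 13 members without overlap in place of 12.

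The same libraries stood apart in other genes of chromosome 4, which were picked after their values were seen. Ctrc, the digestive enzyme chymotrypsin C, was counted 20672, 410 and 14005 times in WT and 13895, 241 and 109 times in KO. Padi2, a peptidylarginine deiminase, was counted 305, 76 and 427 times in WT and 348, 69 and 69 times in KO. Angptl7, an angiopoietin-like gene, was counted 973, 104 and 1314 times in WT and 891, 235 and 155 times in KO. In mm9 they start at 141394154, 140462259 and 147869292, all at lower positions than Eno1. In these 3 genes WT replicates 1 and 3 and KO replicate 1 were high, whichever their genotype, and the part of this split in the Eno1 difference was not tested beyond the sum above.

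**Figure D4:**
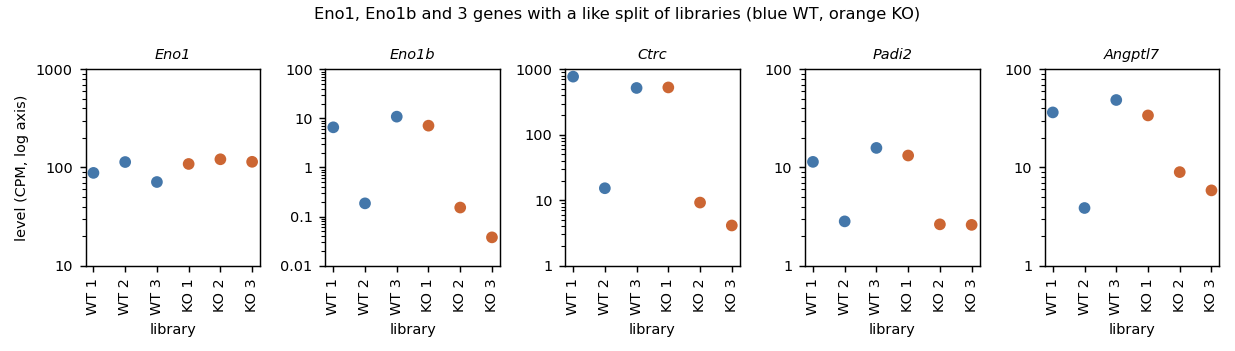
CPM on log axes for Eno1, Eno1b, Ctrc, Padi2 and Angptl7 in the 6 libraries (blue WT, orange KO). WT 1, WT 3 and KO 1 are high in the last 4 panels, and in the Eno1 panel WT 1 and WT 3 are the lowest libraries, at 88.1 and 71.1 CPM.

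The disallowed genes were not separated by genotype. Ldha, which turns pyruvate into lactate (chromosome 7, 54096845 to 54110997), was at 30.5, 49.3 and 16.9 CPM in WT and 35.2, 25.8 and 27.0 in KO. The WT libraries held both the highest and the lowest value, so the KO values lay within the WT range. Its log2 fold change was -0.13 (SE 0.35, edgeR adjusted p = 0.886), with a 95% interval of -0.97 to 0.70, which leaves room for sizeable differences either way. Slc16a1 (chromosome 3, 104442591 to 104462385), through which lactate and pyruvate cross the membrane, was at 3.18, 4.98 and 2.63 CPM in WT and 5.06, 3.28 and 3.28 in KO. WT replicate 2 and KO replicate 1 were high and the other 4 lower, with a log2 fold change of 0.11 (SE 0.30, interval -0.61 to 0.83).

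Hk1 (chromosome 10, 61731603 to 61842656) was at 14.5, 13.7 and 10.01 CPM in WT and 14.9, 11.3 and 9.77 in KO. The libraries of both genotypes were interleaved (log2 fold change -0.09, SE 0.20, interval -0.57 to 0.39). Ldhb, the heart-type lactate dehydrogenase, was at 10.3, 15.1 and 7.60 CPM in WT and 10.5, 13.2 and 11.4 in KO (0.09, SE 0.25). Per exonic length, Slc16a1 and Hk1 were among the 3 lowest members in WT, at 0.813 and 1.49 CPM per kilobase, while Ldha had 10.8. Of 16 other genes listed as disallowed in beta cells, 0 were called, 6 had positive and 10 negative log2 fold changes, and the median was -0.08. Zdhhc9, a protein palmitoyltransferase, was the only one of these 16 whose groups did not overlap (7.41, 7.92 and 7.08 CPM in WT, 6.55, 6.57 and 5.24 in KO). Over all genes, 12.1% had KO libraries all below WT and 11.3% all above. The chemokine gene Cxcl12, picked for its size after its values were seen, was at 5.57, 4.83 and 4.34 CPM in WT and 16.9, 17.5 and 5.28 in KO, and DESeq2 called it higher where edgeR did not (adjusted p = 0.202).

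The disallowed genes were among the members that varied most among libraries of the same genotype. The pooled within-genotype coefficient of variation (SD over mean) was 41% for Hk2, 39.2% for Ldha, 35.5% for Pdk4, 30.3% for Slc16a1, 25.1% for Ldhb, 20.7% for Pfkp and 20.3% for Hk1. The median over the 41 members was 7.86%, and over all tested genes 12.3%. The 16 leukocyte markers, a list added after seeing the data that includes the B cell genes Cd79a and Ms4a1, summed to 459, 558 and 105 CPM in WT. In KO the sums were 373, 230 and 221 CPM. All 16 had counts in every library. Ranked from high to low, this sum ran WT 2, WT 1, KO 1, KO 2, KO 3, WT 3, and Ldha ran WT 2, KO 1, WT 1, KO 3, KO 2, WT 3. Pfkp ran WT 2, WT 1, KO 1, KO 3, KO 2, WT 3. Other variable members had other orders: Hk1 ran KO 1, WT 1, WT 2, KO 2, WT 3, KO 3, Slc16a1 ran KO 1, WT 2, KO 2, KO 3, WT 1, WT 3, and Pdk4 ran WT 1, KO 2, WT 2, KO 3, WT 3, KO 1. Ldhb ran WT 2, KO 2, KO 3, KO 1, WT 1, WT 3, and Hk2 ran WT 2, KO 2, WT 1, KO 1, KO 3, WT 3. WT replicate 3 had the lowest value of Ldha, Ldhb, Slc16a1, Hk2 and Pfkp. It was the lowest library for 11 of the 41 members in all, and WT replicates 1 and 2 were lowest for 10 and 15. The part of these markers in the spread of the disallowed genes was not tested. Summed acinar markers ranged from 27369 to 86184 CPM in WT and from 20046 to 53413 in KO, and were lowest in KO replicate 3.

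**Figure D5:**
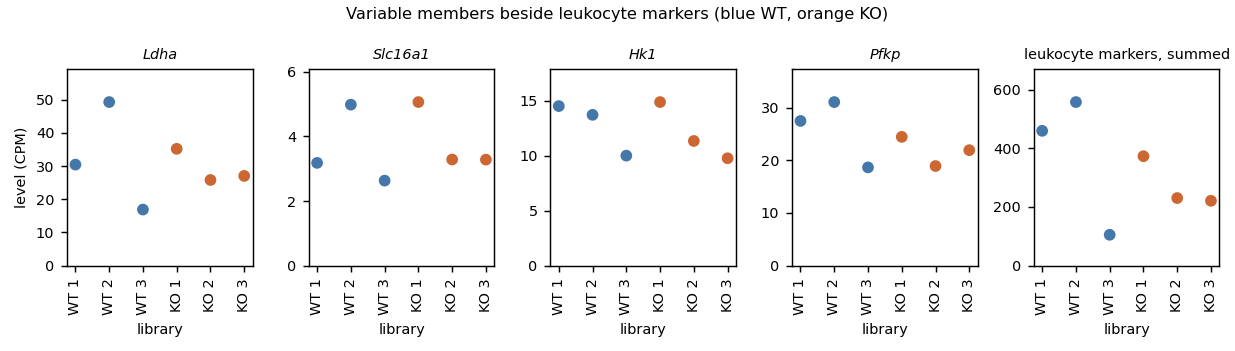
CPM (y axes from 0) of Ldha, Slc16a1, Hk1 and Pfkp and the summed CPM of 16 leukocyte markers in each library (blue WT, orange KO). For Ldha, Pfkp and the leukocyte sum WT 2 is the highest and WT 3 the lowest library, at 49.3 and 16.9 CPM for Ldha.

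In pyruvate entry, only subunits of pyruvate dehydrogenase had groups without overlap. The pyruvate dehydrogenase complex makes acetyl-CoA from pyruvate, its kinases (Pdk1 to Pdk4) switch it off, and pyruvate carboxylase (Pcx) makes oxaloacetate, a route that beta cells use heavily. Of the 8 members, 2 (25%) had KO libraries all above WT, both of them subunits of the first enzyme of the complex. The share over all genes was 11.3%, and the difference between these shares was not tested. Pdha1, its alpha subunit (chromosome X, 156560141 to 156576345), was at 64.5, 65.4 and 71.5 CPM in WT and 74.1, 75.8 and 74.0 in KO (0.15 on the log2 scale, SE 0.07, adjusted p = 0.317). Pdhb, the beta subunit (chromosome 14, 8998505 to 9005506), was at 61.4, 66.5 and 68.1 CPM in WT and 70.2, 77.3 and 77.3 in KO (0.20, SE 0.07, adjusted p = 0.264). Dlat, the second enzyme of the complex, overlapped, at 0.07 (SE 0.08).

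The kinase genes showed no common direction. Pdk4, induced in fasting, was at 71.8, 45.6 and 31.4 CPM in WT and 30.6, 48.4 and 38.9 in KO (-0.34, SE 0.31, adjusted p = 0.629), with WT replicate 1 far above the others. Pdk1, Pdk2 and Pdk3 were at 0.07, 0.03 and 0.20. Pcx was at 157.1, 160.3 and 157.7 CPM in WT and 136.3, 180.5 and 159.9 in KO, so the KO libraries lay on both sides of a narrow WT range (0.00, SE 0.11). Summed over the 8 genes, these transcripts took 465 ± 13.9 CPM in the WT libraries and 479 ± 26.005 in the KO libraries (SD, n = 3, two-sided exact permutation p = 0.5, smallest possible 0.1).

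The citrate cycle had the most members without overlap of the 4 steps. Of its 14 members, 6 (42.9%) had KO libraries all above WT, beside 11.3% of all genes. Log2 fold changes were positive in 13 and 0 were called, with a median of 0.14. Idh3a, the catalytic subunit of the NAD-dependent isocitrate dehydrogenase (chromosome 9, 54434288 to 54452468), was at 47.6, 39.1 and 50.9 CPM in WT and 57.2, 57.4 and 56.2 in KO (0.31, SE 0.10, adjusted p = 0.225). The KO libraries were close together and the WT libraries were not. Its partner subunits Idh3b (0.12, SE 0.08) and Idh3g (0.09, SE 0.07) overlapped between genotypes.

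Ogdh, the 2-oxoglutarate dehydrogenase (chromosome 11, 6191636 to 6256645), was at 252.1, 237.5 and 242.5 CPM in WT and 263.4, 285.1 and 285.7 in KO (0.19, SE 0.07, adjusted p = 0.265). Of the succinyl-CoA ligase genes, Suclg1, the shared alpha subunit (chromosome 6, 73198376 to 73226905), was at 65.5, 62.0 and 60.3 CPM in WT and 68.2, 71.1 and 70.2 in KO (0.16, SE 0.06, adjusted p = 0.284). Suclg2, the GTP-forming beta subunit (chromosome 6, 95423006 to 95668792), was at 34.9, 34.5 and 38.1 CPM in WT and 41.6, 42.5 and 41.4 in KO (0.22, SE 0.07, adjusted p = 0.211). The ATP-forming Sucla2 had a like log2 fold change, 0.19 (SE 0.11), but KO replicate 2 lay within the WT range.

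Both malate dehydrogenases were without overlap. Mdh1, the cytosolic form (chromosome 11, 21456790 to 21472370), was at 212, 184 and 196 CPM in WT and 232, 218 and 236 in KO (0.21, SE 0.08, adjusted p = 0.264). Mdh2, the mitochondrial form (chromosome 5, 136254350 to 136266268), was at 125.2, 118.7 and 132.4 CPM in WT and 141.6, 144.8 and 141.7 in KO (0.19, SE 0.06, adjusted p = 0.244). Per exonic length they were the members ranked 3 and 4, at 76.8 and 60.0 CPM per kilobase in WT. Citrate synthase (Cs), which opens the cycle, was at 0.05 (SE 0.06), with a 95% interval of -0.09 to 0.19. Fumarase (Fh1) was at 0.07 (SE 0.13), the NADP-dependent Idh1 at -0.05 (SE 0.10) and Idh2 at 0.08 (SE 0.09), and the cytosolic malic enzyme Me1 at 0.06 (SE 0.16).

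Summed over the 14 genes, the level was 1236, 1155 and 1244 CPM in WT and 1313, 1337 and 1393 in KO, 11.2% higher in KO by the means (1211 ± 49.5 against 1348 ± 41.1 CPM, SD, n = 3). The two-sided exact permutation p was 0.1, the smallest possible, and 0.2 adjusted over 4 steps. The lactate genes gave 46.8 ± 21.3 CPM in WT against 44.9 ± 5.08 for KO (SD, n = 3, exact permutation p = 0.8). As with glycolysis, the beta cell and endothelial marker sums were higher in the same 3 libraries.

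Further genes of the same routes, outside the 41, were read from lists. Of 8 further citrate cycle genes, 0 were called and 5 were higher at an unadjusted p below 0.05 in edgeR (6.99% of all genes were). Their median was 0.16. KO libraries lay all above WT in 7 of the 8, beside 11.3% of all genes. The succinate dehydrogenase subunit genes Sdha (0.29, SE 0.08), Sdhb (0.29, SE 0.06), Sdhc (0.30, SE 0.10) and Sdhd (0.16, SE 0.06) were among them, as were the cytosolic aconitase gene Aco1 (0.13, overlapping with DESeq2 size factors) and Dlst (0.14), the partner of Ogdh. The exception was Acly, which splits citrate in the cytosol (0.14, SE 0.18). Dld, the subunit shared by the pyruvate and 2-oxoglutarate dehydrogenase complexes, was at 86.0, 78.4 and 86.1 CPM in WT and 96.1, 100.9 and 100.5 in KO (0.25, SE 0.07, adjusted p = 0.171). DESeq2 called Dld, Sdha and Sdhb higher, and of genes named further on Slc25a11 and G6pc2, where edgeR called none of them.

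Among 13 tested of 15 further pyruvate and lactate genes, 3 (23.1%) had KO libraries all above WT, beside 11.3% of all genes. They were Dld, the pyruvate carrier subunit Mpc2 (0.17, SE 0.08) and the phosphatase Pdp1 (0.24, SE 0.09), which switches pyruvate dehydrogenase on. Mpc1, the other carrier subunit, was at 0.29 (SE 0.15). Slc16a3, a lactate exporter, stood at 0.224 to 0.744 CPM. Of 11 shuttle genes, which carry reducing power into mitochondria, 3 (27.3%) had KO libraries all above WT. They were the aspartate aminotransferase Got2 (0.24, SE 0.08), the oxoglutarate carrier Slc25a11 (0.25, SE 0.07) and the aspartate-glutamate carrier Slc25a12 (0.12, SE 0.08). Gpd2, the mitochondrial glycerol phosphate dehydrogenase, was at 57.1, 85.5 and 58.8 CPM in WT and 72.7, 94.1 and 131.1 in KO (0.56, SE 0.24), with overlap.

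The 19 tested of 21 further glycolysis genes had a median of -0.01, with 9 positive and 10 negative. G6pc2, an islet glucose-6-phosphatase, was at 3971, 4241 and 3431 CPM in WT and 5211, 5488 and 4578 in KO (0.39, SE 0.14, adjusted p = 0.259). Slc2a2, the beta cell glucose transporter, was at 0.39 (SE 0.20). Bpgm, which makes 2,3-bisphosphoglycerate, was without overlap and higher in KO (0.17, SE 0.08), and Adpgk, an ADP-dependent kinase of glucose, without overlap and lower (-0.30, SE 0.11). Of 14 tested of 16 hypoxia-responsive genes, 7 were positive and 7 negative, with a median of 0.01. In these, Vegfa, the vascular growth factor gene (-0.20, SE 0.08), and Higd1a, a mitochondrial membrane protein gene (-0.27, SE 0.11), had KO libraries all below WT, and the collagen hydroxylase gene P4ha2 (0.27, SE 0.10) all above. These counts, 2 lower and 1 higher of 14, stand beside shares of 12.1% and 11.3% over all genes, and Vegfa overlapped with DESeq2 size factors.

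In a list of 17 oxidative phosphorylation genes, taken as the neighbouring route, 14 had KO libraries all above WT, beside 11.3% of all genes. The list had a median of 0.23 with 17 positive and 0 called. Its median is larger than that of the citrate cycle members (0.14) or of glycolysis (0.13), and the difference was not tested. Shorter genes tended to larger values: Spearman's rho between exonic length and log2 fold change was -0.30 across the 41 members and -0.23 across 14792 genes, a description across genes that share libraries. The members' median exonic length was 3263 bases, against 3522 for all tested genes with annotation. With offsets on length and GC content, 36 of 41 members were positive, with a median of 0.11. In that run 9 were higher at an unadjusted p below 0.05 in edgeR. The main fit gave 34, 0.09 and 11. The part of length in the members' values was not tested further.

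No share of an isozyme was separated by genotype. Of 17 shares computed per exonic length, none had groups without overlap, and every exact permutation p adjusted over the 17 was at least 0.85. Ldha made up 59.4 ± 4.87% of both lactate dehydrogenases in WT and 56.7 ± 6.63% in KO (SD, n = 3). Slc2a1 was 1.148 ± 0.0221% of the Slc2a1 and Slc2a2 level in WT and 0.980 ± 0.265% in KO. Pfkm led the phosphofructokinases with 55.2 ± 2.68% in WT and 56.2 ± 0.835% in KO, and Aldoa made up 95.7 ± 0.166% and 96.0 ± 0.454% of Aldoa and Aldoc. Pdk4 took the largest share of the kinases, 44.3 ± 10.7% in WT and 38.3 ± 7.87% in KO, with WT replicate 1 at 55.5%. A p above the threshold does not show that the shares are equal.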

How the data were processed

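The authors deposited raw read counts, whole numbers that were not normalized, for 53670 gene symbols in 6 islet libraries, 3 WT and 3 KO by title. Per the submitters' processing notes, CASAVA 1.8.2, HISAT2 2.1.0, HTSeq, DESeq2 and build mm9 were used. The annotation, strand setting and treatment of reads with several matches are not stated in the sources at hand, so antisense overlap and near-identical copies can affect counts. Counts of all 6 libraries were fitted in R 4.3.3 with edgeR 4.0.16 (filterByExpr, TMM, quasi-likelihood F-test on genotype, Benjamini-Hochberg over 15915 genes, called below 0.05). The script was tested on simulated data. DESeq2 1.42.0, limma-voom (limma 3.58.1), other scaling, no filter, a replicate block, offsets on length and GC content, KO replicate 1 alone and leaving out each library were run beside it. Exonic length, GC content and coordinates came from GENCODE vM1 (mm9), matched for 92.9% of tested genes and all 41 members. Sums and shares were compared by exact permutation. The 41 members, the lists and the tests were chosen with earlier results of these data known. Within a group, no library repeated another: their counts differed beyond Poisson noise. Per-library values are given for members whose groups do not overlap and for Ldha, Slc16a1 and Hk1, and from the other lists genes without overlap and a few fixed genes are named, of which some are not reported here. Other genes were chosen after their values were seen. Figures were drawn with matplotlib 3.10.9.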

Additional observations from a re-analysis of the deposited data

How the results depend on the processing

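Over all genes, the 27 genes called lower in KO became 437 in DESeq2, 3 with length and GC offsets, and 0 in limma-voom, with the replicate block and with KO replicate 1 alone. Leaving out 1 library gave 0 to 80 (80 without WT replicate 3). The 0 genes called higher became 209 in DESeq2, 1 with KO replicate 1 alone, and 0 to 9 when 1 library was left out. DESeq2 called 1 member higher, Pgam1, and no other alternative called any member. The members' median log2 fold change was 0.09, 0.13 with KO replicate 1 alone and 0.090 to 0.15 without 1 library. The 12 members without overlap had positive log2 fold changes in every alternative run. This follows almost wholly from how they were picked, since leaving out libraries cannot reverse groups that do not overlap. Members with KO above WT numbered 23 with KO replicate 1 alone, and members with KO below WT 2 there and 0 to 1 without 1 library (1 without WT replicate 3). The share of Pfkp was lower in KO by 1.48 percentage points, a difference of -1.48, and of -3.07 from counts not scaled by length. With the replicate block the members' median was 0.12 and their lowest adjusted p 0.248. Same-numbered libraries deviated together with correlations of 0.18, 0.06 and 0.03, and not every library correlated best with its own number, so the numbers were not taken as pairs. Depth limits Hk2 most, at 29 to 69 counts per library.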
